A study of Mus musculus with 3 samples.

Results

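Mt1 and Mt2 encode the widely expressed metallothioneins of the mouse. Both genes were chosen by name, and they are 2 of the 50507 genes in the count table and 2 of the 3013 genes that passed the filter on low counts and were tested. Metallothioneins are small, cysteine-rich proteins that bind zinc and copper ions and that take up cadmium and other toxic metals. Their transcription is driven by MTF-1, the zinc-sensing transcription factor encoded by Mtf1, which binds short metal response elements in their promoters. Glucocorticoids and oxidative stress also induce the pair, whereas the related Mt3 and Mt4 are known mainly from brain and from stratified epithelium.

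The libraries came from primary mouse embryonic fibroblasts (MEFs) of strain BL6 and wild-type genotype, all of which carried lentiviruses with the doxycycline-inducible tet-STEMCCA cassette (Oct4, Sox2, Klf4 and c-Myc) and with rtTA. Transfected cells received 40 nM of an siRNA pool with RNAiMAX, were replated a day later into reprogramming medium (2 µg/mL doxycycline, 3 µM chiron, 0.25 µM Alk5 inhibitor, 50 µg/mL ascorbic acid and LIF) and were collected at day 6. There were 33 siRNA pools (98 libraries), the non-targeting siRNA nt (3 libraries) and a Mock transfection (5 libraries). An untransfected time course, in which cells were only replated to start reprogramming, ran from Day00 to Day06 with 3 libraries a day. Each replicate number is 1 sequenced pool of barcoded CEL-Seq2 libraries. The count table has 2 Mock columns per replicate under the same name. They were taken here as separate libraries, so the 5 Mock libraries may stand for only 3 independent samples. According to the study's text the siRNA transfections were done in triplicate. Whether the replicates came from separate MEF preparations is not given in the sources used here, so the p-values measure the spread between these libraries, which may not include that between preparations.

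In the mouse genome build GRCm38 (mm10), Mt2 (ENSMUSG00000031762.7) lies at chr8:94172664-94173568 and Mt1 (ENSMUSG00000031765.8) at chr8:94179082-94180327, both on the plus strand with 5513 bases between them. The antisense gene Gm45774 overlaps Mt2 by 749 bases and had 36 counts in all 127 libraries, against 7968 for Mt2 and 4003 for Mt1. The 250 bases before the RefSeq start of each gene (GRCm38.p6, chr8:94178839-94179088 for Mt1 and chr8:94172368-94172617 for Mt2, plus strand) are given here to show where letters of the metal response element lie. Capitals mark the metal response element core, searched as TGCACNC and TGCGCNC on both strands.
Mt1: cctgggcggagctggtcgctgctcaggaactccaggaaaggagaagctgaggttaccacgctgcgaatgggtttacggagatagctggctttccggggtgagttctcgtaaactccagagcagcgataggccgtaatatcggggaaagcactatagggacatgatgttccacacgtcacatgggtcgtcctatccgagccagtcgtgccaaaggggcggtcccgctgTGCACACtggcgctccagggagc
Mt2: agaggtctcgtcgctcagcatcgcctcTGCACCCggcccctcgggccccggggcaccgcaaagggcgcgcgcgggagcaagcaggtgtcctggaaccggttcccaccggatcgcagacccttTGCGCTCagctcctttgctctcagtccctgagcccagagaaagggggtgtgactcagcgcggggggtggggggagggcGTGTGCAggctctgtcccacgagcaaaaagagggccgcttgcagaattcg

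The Mt2 window held 3 core matches, 1 of them on the minus strand, and 1.26% of the 32851 RefSeq promoter windows of this length held as many. The Mt1 window held 1 match, and 21.4% of all windows held at least 1. Mt1 has other annotated starts downstream, and the 250 bases before its start at position 94179241 held 5 matches, 1 of them on the minus strand, and a TATAAA that began 31 bases before the start. Of these 5, 4 lie downstream of the Mt1 window printed here. Only 0.0822% of the windows held 5 or more. A further Mt1 start, at position 94179211, had 5 matches and no TATAAA in its window. Another Mt2 start, at position 94172860, had 4 matches before it, a number that 0.304% of the windows reached, and a TATAAA at base -107. The antioxidant response core TGACNNNGC had 1 match in the Mt2 window and 0 in the Mt1 window, and 10.2% of windows held it. A match says only that the letters are there.

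The 127 libraries held 29656 to 235292 counts each (median 73279), so that Mt1 and Mt2 together made up 0.113% of all counts and between 2 and 469 counts per library. All levels of Mt1 and Mt2 below are in CPM, the count scaled to the library's TMM-adjusted total of the tested genes, and levels of marker lists are in CPM of all counts. All 12 fibroblast markers had counts at Day00, Day06 and under nt and siMtf1, so that their detection does not tell these groups apart. Their sum was 6204 to 8092 CPM at Day00, 2884 to 3799.8 at Day06 and 1837 to 2490.0 under nt, while epithelial and early pluripotency markers summed to at most 21.2 CPM at Day00 and at least 106 at Day06. Macrophage markers summed to 115 to 221 CPM at Day00 and 27.6 to 90.5 at Day06, and hepatocyte markers were at 0 in both. The fibroblast markers did not move as a block: between Day00 and Day06 edgeR called 6 of the 10 tested lower and 2 higher, Dcn (log2 3.18 ± 0.54) and Lum (3.67 ± 0.86). The part of such shifts in the metallothionein levels was not tested. In these bulk samples, fewer cells of a type and less RNA per cell cannot be told apart.

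Over 6 days of reprogramming both metallothioneins rose, in the main fit Mt2 past the threshold from Day01 and Mt1 from Day04. Without Day00 replicate 3 this order was reversed, with Mt1 past the threshold from Day02 and Mt2 from Day03. The difference in timing between the genes was not tested. Mean Mt2 went from 51.8 CPM ± 53.0 (SD, n = 3) at Day00 to 973 CPM ± 155 at Day06. Mean Mt1 went from 64.9 CPM ± 59.3 to 567 CPM ± 48.3. The study used the time course as the reference along which the knockdowns were placed, and reported a strong delay under siWdr5, siBrca1 and siBard1. Whether metallothionein levels under these siRNAs go with that delay was not tested.

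Mt2 stood at 0, 106 and 49.7 CPM in replicates 1, 2 and 3 of Day00, from 0, 5 and 6 counts. On Day01 it stood at 138, 171 and 182 CPM. All Day01 libraries were thus above all Day00 libraries, and this was so on every later day as well. Mt2 then read 147, 243 and 146 CPM on Day02 and 140, 325 and 273 CPM on Day03. On Day04 it reached 348, 587 and 385 CPM, above every earlier library. The values were 825, 969 and 934 CPM on Day05 and 801, 1103 and 1016 CPM on Day06. Day05 lay wholly above Day04, whereas the ranges of Day05 and Day06 overlapped.

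In log2 terms Mt2 was already 1.74 ± 0.47 (SE) higher on Day01 than on Day00 (edgeR adjusted p = 0.0062), a comparison in which 3.09% of the tested genes were called higher. The log2 difference from Day00 was 1.81 on Day02 (adjusted p = 0.0021, 5.14% of genes called higher), 2.30 on Day03 (adjusted p = 1.25e-05, 5.11%) and 3.15 on Day04 (adjusted p = 4.7e-13, 8.3%). It came to 4.21 ± 0.34 on Day05 (adjusted p = 2.07e-25), where 16.8% of genes were called higher. On Day06 it was 4.29 ± 0.34, or 19.6-fold (adjusted p = 4.11e-26), where 10.7% were. Mt2 was higher in 3 of 3 replicates on each of these days. Without Day00 replicate 3 the Day06 difference was 3.89, the same as that of Mt1 under this setting. Day00 replicate 2, the library with the highest Mt2 level of that day, held the differences down: without it they were 2.33 on Day01, 2.40 on Day02, 3.74 on Day04 and 4.81 on Day05, and without all libraries of replicate 2 the Day05 difference was 4.86. From 1 day to the next, Mt2 passed the threshold on Day04 (log2 0.85 ± 0.26, adjusted p = 0.016, 5.31% of genes called higher) and on Day05 (1.06 ± 0.20, adjusted p = 8.35e-05, 3.42%). Both steps failed the threshold in the fit without the replicate block (0.81 with adjusted p = 0.19, and 1.05 with adjusted p = 0.090), and the Day04 step also without any 1 of the 3 replicates (0.80 to 1.00). The Day01 and Day02 differences from Day00 were no longer called without Day00 replicate 3 (1.38 with adjusted p = 0.20, and 1.42 with adjusted p = 0.17), and that of Day01 fell short without the block as well (1.68, adjusted p = 0.065). Leaving out all libraries of replicate 3 also lost both calls (1.45 and 1.77), and leaving out those of replicate 1 lost that of Day01.

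Mt1 started at 41.0, 21.2 and 132 CPM on Day00, from 2, 1 and 16 counts. It read 160.5, 48.9 and 159 CPM on Day01, 147, 212 and 155 CPM on Day02 and 175, 343 and 96.8 CPM on Day03. These early days overlapped with Day00 or with each other, and none of the 3 passed the test against Day00. On Day04 Mt1 stood at 224, 223 and 174 CPM, on Day05 at 228, 358 and 296 CPM, and on Day06 at 593, 596 and 511 CPM. The 3 Day06 libraries were above all earlier ones.

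The log2 difference of Mt1 from Day00 was 0.48 on Day01 (edgeR adjusted p = 0.60), 1.00 on Day02 (0.10) and 1.10 on Day03 (0.074). It was 1.28 ± 0.38 on Day04 (adjusted p = 0.0089), 1.79 ± 0.36 on Day05 (2.16e-05) and 2.71 ± 0.33, or 6.56-fold, on Day06 (2.69e-12), higher in 3 of 3 replicates on each of these days. Day00 replicate 3, the library with 16 Mt1 counts, set the size of these differences: without it they were 2.48 on Day04, 2.99 on Day05 and 3.89 on Day06. The day-to-day step that passed the threshold was Day06 over Day05 (log2 0.92 ± 0.24, adjusted p = 0.0063), a step on which 3.32% of genes were called higher and on which the Mt2 difference was 0.08 ± 0.19 (adjusted p = 0.84). This Mt1 step too fell short without the replicate block (0.93, adjusted p = 0.066), without replicate 1 (0.74, adjusted p = 0.12) and in limma on the deposited values (1.03, adjusted p = 0.19). The Day04 difference from Day00 was not called without Day00 replicate 2 (1.06, adjusted p = 0.051), nor without all libraries of replicate 1 (1.08) or 2 (1.03). Across the 7 days, Mt2 had the 5th smallest p of the 3013 tested genes (edgeR F test, adjusted p = 2.3e-39) and Mt1 the 74th (adjusted p = 9.4e-15), and 42.5% of genes passed this test.

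**Figure D1:**
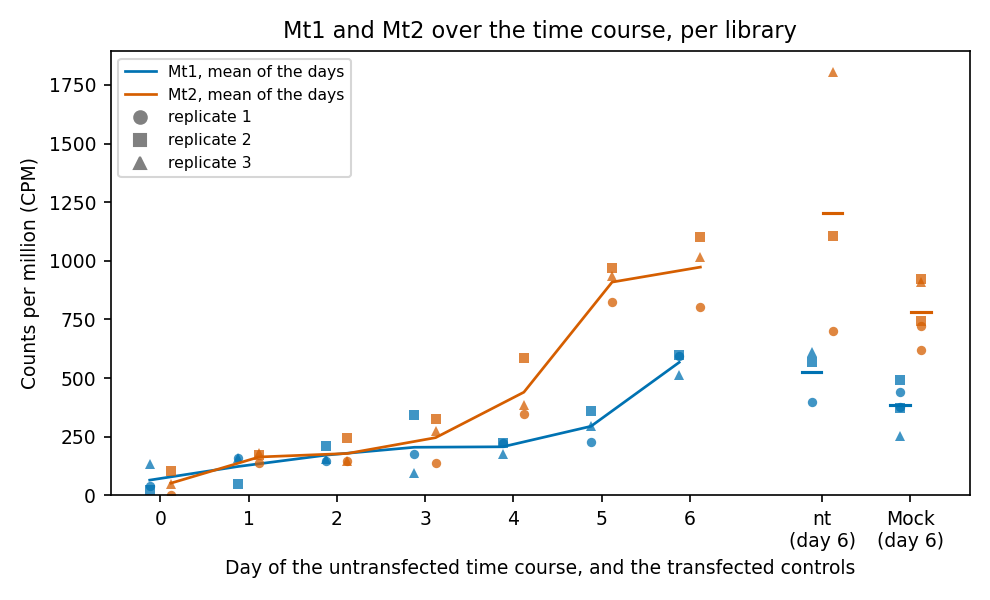
Level of Mt1 (blue) and Mt2 (orange) in CPM in each library by day, with lines through the daily means, and beside them nt and Mock with their means as bars. Mt2 climbs most between Day03 and Day05 and is level from Day05 to Day06, Mt1 climbs from Day05 to Day06, and nt replicate 3 is the highest Mt2 value at 1805 CPM.

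Few other genes of metal handling had enough counts to be compared between Day00 and Day06, where the median log2 difference of all tested genes was 0.05 and 22.2% were called in either direction. Of 25 genes of metal-responsive regulation and zinc transport, 4 were tested and 1 was called: Slc39a6, a zinc importer, was lower (log2 -1.06 ± 0.34, edgeR adjusted p = 0.013). None of the 2 tested copper genes of 14 was called by edgeR, and 1 of them had an unadjusted p under 0.05. Of 6 tested iron genes of 12, 2 were higher, and these were the transferrin receptor Tfrc (1.51 ± 0.29, adjusted p = 8.85e-06) and Pcbp2, a poly(C)-binding protein that also acts as an iron chaperone (0.57 ± 0.20, adjusted p = 0.027).

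Of 14 tested genes of the oxidative stress response (19 listed), 6 were higher and 1 lower, and their median log2 difference was 0.65. The glutathione reductase Gsr (log2 2.50 ± 0.65), catalase Cat (1.56 ± 0.51), the glutamate-cysteine ligase subunit Gclm (0.84 ± 0.26) and the peroxiredoxin Prdx6 (0.77 ± 0.25) were among those higher. Slc7a11, the cystine importer, had 0 counts of 227117 at Day00 and 47 of 265205 at Day06. The glutathione peroxidase Gpx1 was lower (-1.07 ± 0.30). Of 4 tested glucocorticoid-responsive genes of 12, Cebpd was higher (1.36 ± 0.48) and Sgk1 lower (-2.98 ± 0.67), and of the 2 tested LIF and STAT3 response genes of 10 edgeR called 0, with 0 at an unadjusted p under 0.05. Mtf1 itself (51 counts over 127 libraries), the zinc exporter Slc30a1 (65 counts), Mt3 (7) and Mt4 (27) were too sparse to be tested.

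The transfected controls of day 6 were not called different from untransfected cells of that day for either gene. Mt1 stood at 399.7, 568.3 and 613 CPM and Mt2 at 699, 1107 and 1805 CPM in nt replicates 1, 2 and 3. In Mock, Mt1 stood at 439 and 378 CPM in replicate 1, 490.0 and 372 CPM in replicate 2 and 254 CPM in replicate 3. Mock Mt2 was 619, 721, 922, 745 and 911 CPM in the same order. Both nt ranges overlapped those of Day06, while all 5 Mock values of Mt1 were below the lowest Day06 value.

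Against Day06, nt differed by a log2 of -0.05 ± 0.23 for Mt1 (edgeR adjusted p = 0.89) and 0.34 ± 0.18 for Mt2 (adjusted p = 0.17), in a comparison that called 26.6% of genes. Mock differed from Day06 by -0.55 ± 0.24 for Mt1 (adjusted p = 0.075) and -0.24 ± 0.19 for Mt2 (adjusted p = 0.36), with 28.9% of genes called. Mock was below nt by -0.50 ± 0.24 for Mt1 (adjusted p = 0.40) and -0.58 ± 0.18 for Mt2 (adjusted p = 0.079), with 1.56% called. Mock Mt1 did pass the threshold against Day06 with RLE size factors (-0.65), in DESeq2 (-0.66) and with all libraries of the count table (-0.64).

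The siRNA pool against Mtf1 addressed the known regulator of the pair. The methods give 3 pooled siRNAs per target, while the library sheet used here lists 2 against Mtf1, so the content of the pool is not settled. The 2 listed are given as sense strands, with the bases that pair with the guide strand in capitals.
siMtf1 sequence 1: GGUUUGUGGAUGACAACGGtt
siMtf1 sequence 2: GGAGCUAAGUGAUUUUAGAtt

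The target of sequence 1 is coding, in exon 2 of Mtf1 (chr4:124804793-124804811, GRCm38), and that of sequence 2 is in the 3′ UTR, in exon 11 (chr4:124846701-124846719). Sequence 1 matched 4 of the 5 annotated Mtf1 transcripts and sequence 2 matched 2 of them, and neither matched a transcript of Mt1 or Mt2. The depletion of Mtf1 could not be read from these libraries: Mtf1 had 0 counts in both siMtf1 libraries, where the share of Mtf1 in all remaining transfected libraries of replicates 1 and 2 would have given 0.703 counts, and the exact Poisson 95% interval of the ratio reached 5.25. These intervals cover counting error only. The siMtf1 group has 2 libraries, since replicate 3 was shallow and is absent from the authors' normalized table.

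Mt2 was lower under siMtf1 than under nt, and Mt1 was not called different. Mt2 stood at 406 and 613 CPM in siMtf1 replicates 1 and 2, from 22 and 37 counts, below each of the 3 nt libraries. Mt1 stood at 332 and 497 CPM, from 18 and 30 counts, with the higher value inside the nt range. The log2 difference was -1.07 ± 0.25 for Mt2 (edgeR adjusted p = 0.0094, lower in 2 of 2 replicates) and -0.26 ± 0.29 for Mt1 (adjusted p = 0.82, 95% interval -0.83 to 0.31). This comparison called 8 genes lower, 0.266% of those tested. Of 34 tested genes in 7 lists of metal, stress, glucocorticoid and LIF responses, Mt2 was the only gene called, and 4 had an unadjusted p under 0.05.

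The Mt2 call did not hold with other controls or in several other fits. Among the transfected libraries of its own replicate, siMtf1 Mt2 was 0.627 and 0.697 times the median, the 4th and the 9th lowest of 36. Against the mean of the other transfected conditions, the log2 difference was -0.61 ± 0.22 for Mt2 (edgeR adjusted p = 0.25) and -0.06 ± 0.25 for Mt1 (adjusted p = 0.97), and 0.0996% of genes were called lower. With Mock as the control the Mt2 difference was -0.49 (adjusted p = 0.39), and without nt replicate 3, the library with the highest Mt2 level of all transfected libraries, it was -0.82 (adjusted p = 0.22). With nt kept as the control, the call was also lost without the replicate block (-1.26, adjusted p = 0.24), with only the libraries compared (-0.77, adjusted p = 0.32) and in limma on the deposited values (-0.92, adjusted p = 0.70). Leaving out siMtf1 replicate 1 (-0.97, adjusted p = 0.51) or 2 (-1.15, adjusted p = 0.15) leaves 1 library, which is assumed to vary like the other conditions, so these runs give the size of the difference and say little on the call. The self-test on simulated counts recovered 17% of genes changed by a log2 of 1 at this depth, so a difference of the size seen in Mt1 could be missed.

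Across the 35 transfected conditions both genes varied. The highest mean of Mt2 was under siPhf1 (1338 CPM) and the lowest under siMtf1 (509 CPM, replicates 1 and 2 only), around a median of 867 CPM. Because siMtf1 has no library of replicate 3, which tends to read highest, its mean is not comparable with the others: over replicates 1 and 2 alone, 6 conditions were below siMtf1 (509 CPM), and the means ran from 423 CPM under siBptf to 1213 CPM under siPhf1. For Mt1 the highest was siWhsc1l1 (778 CPM) and the lowest siSet (254 CPM), a 3.07-fold span around 461 CPM. Placed in order of their means, all 34 pairs of neighbouring conditions overlapped in their libraries for either gene. The edgeR F test over the conditions gave an adjusted p of 3.82e-21 for Mt2, the 85th smallest, and 3.23e-07 for Mt1, the 354th smallest, where 45.1% of genes passed.

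Replicate 3 tended to read highest. In 27 of the 33 transfected conditions other than Mock that had 3 libraries, replicate 3 was the highest Mt2 library, and this was so for Mt1 in 22 of 33. The median Mt2 of the transfected libraries was 647, 879 and 1175 CPM in replicates 1, 2 and 3. Against these medians, nt was 1.08, 1.26 and 1.54 times as high, and nt replicate 3 was the highest of its 34 libraries.

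**Figure D2:**
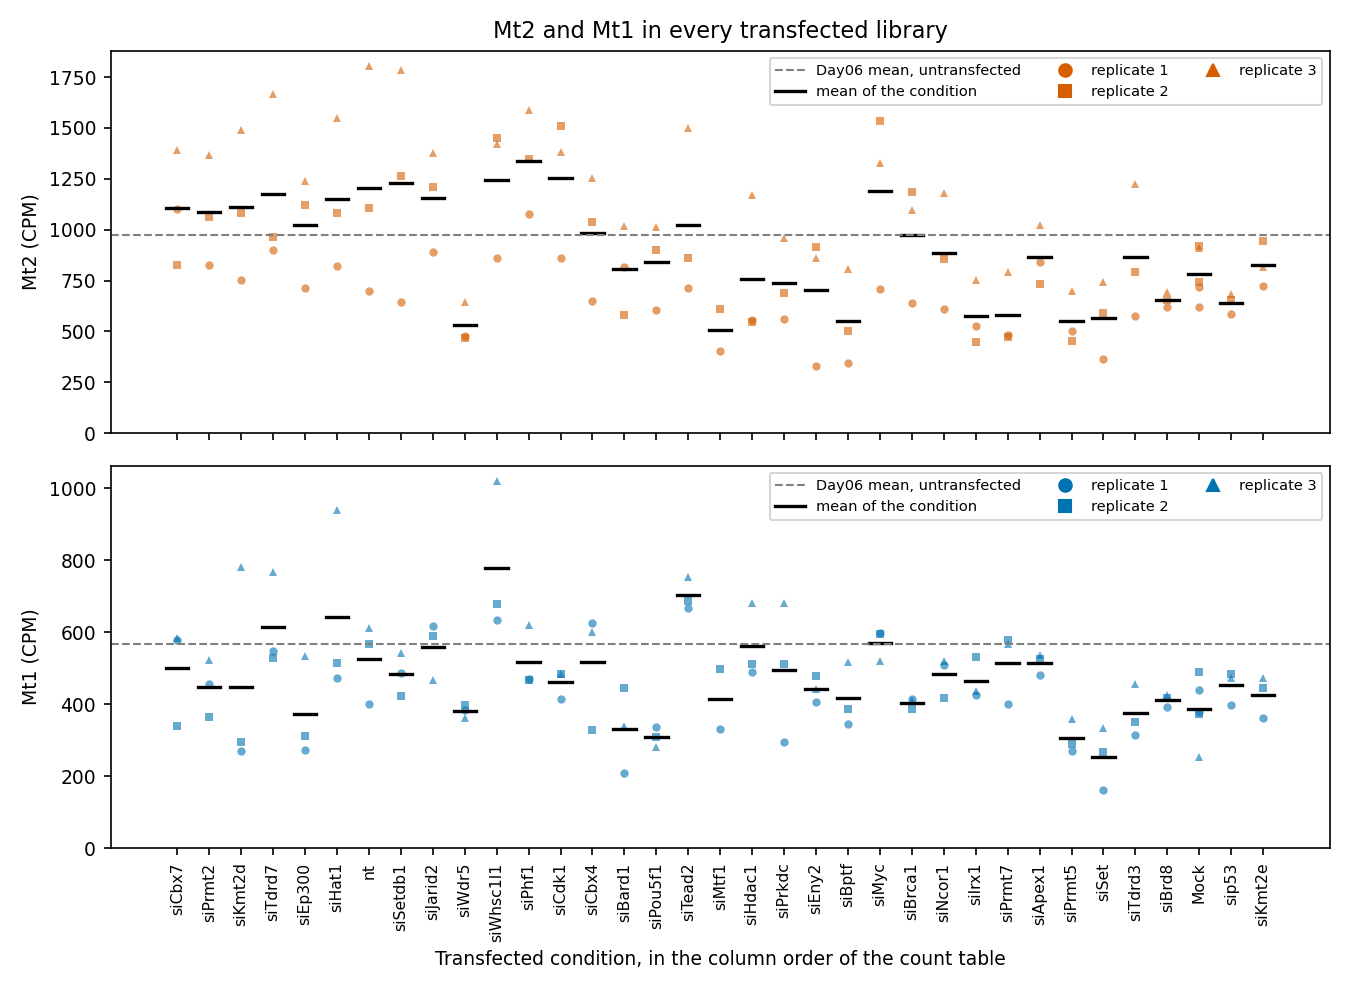
Level of Mt2 (upper panel) and Mt1 (lower panel) in CPM in each transfected library, by condition in the column order of the count table, with symbols for replicates, bars for condition means and a dashed line at the untransfected Day06 mean (973 CPM for Mt2, 567 CPM for Mt1). Mt2 means are mostly above the dashed line in the left part and below it in the right part, and replicate 3 tends to be highest.

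Against nt, Mt2 was called lower under 12 of the 33 siRNAs and higher under 0 (0 also at an unadjusted p under 0.05). Over all gene and siRNA pairs of this kind, 1.28% were called lower and 1.29% higher. The 12 were siWdr5 (log2 -1.18 ± 0.20, edgeR adjusted p = 4.8e-07, in a comparison that called 15.1% of genes lower), siPrmt5 (-1.12), siBptf (-1.09), siSet (-1.08), siMtf1 (-1.07), siIrx1 (-1.03), siPrmt7 (-1.03), sip53 (-0.93), siBrd8 (-0.91), siEny2 (-0.80), siPrkdc (-0.71) and siBard1 (-0.57). In 5 of the 33 siRNAs the Mt2 range did not overlap that of nt, siMtf1, which lacks replicate 3, among them. The share of all genes for which this held was not computed, so the 5 have no background to be read against. The differences were negative for 29 of 33 siRNAs, with a median of -0.47. All 33 comparisons share the same 3 nt libraries, and without nt replicate 3 the count fell from 12 to 1, siWdr5. It was 1 also with Mock as the control and in the fit without the replicate block, siWdr5 in either case.

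Mt1 was called lower than nt under 2 siRNAs and higher under 0, with 5 lower and 1 higher at an unadjusted p under 0.05. It stood at 208, 445 and 340.2 CPM under siBard1, the partner of BRCA1 (log2 -0.71 ± 0.25, edgeR adjusted p = 0.043), where 4.78% of genes were called lower. Under siPou5f1, which targets Oct4, it stood at 338, 307 and 282 CPM (-0.83 ± 0.27, adjusted p = 0.046), where 2.19% of genes were called lower. All siPou5f1 values were below the lowest nt value of 399.7 CPM, while siBard1 overlapped with nt. Mt1 under siSet (-0.99, edgeR adjusted p = 0.13), siPrmt5 (-0.78, adjusted p = 0.14) and siWdr5 (-0.49, adjusted p = 0.12) also lay wholly below nt and was not called. Under siWhsc1l1 and siTead2 it lay wholly above nt and was not called either. Neither the siBard1 nor the siPou5f1 call held without nt replicate 2 or without nt replicate 3 (siBard1 -0.67 and -0.68, siPou5f1 -0.75 and -0.79). The count was 0 also with Mock as the control, where 3 siRNAs, siHat1, siTead2 and siWhsc1l1, were called higher instead.

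Mt2 levels also followed the position of a condition in the deposited table. Over 35 conditions, Spearman's rho of mean Mt2 with column position was -0.60 (-0.53, -0.48 and -0.72 within replicates 1, 2 and 3), and 0.398% of tested genes had a rho of larger size. Mt1 gave -0.32, which 13.8% of genes exceeded, and the total counts of the conditions gave -0.43. The points share sequenced pools. The first 17 conditions averaged 1074 CPM of Mt2 and the other 18 averaged 734 CPM. The second average includes siMtf1, which lacks replicate 3, and Mock, most of whose libraries are of replicates 1 and 2, while replicate 3 tended to read highest. Of the 16 siRNAs in the first part, which holds nt at position 7, 2 were called lower in Mt2 than nt, against 10 of 17 in the second part, which holds siMtf1 at position 18 and Mock at position 33. Position and siRNA cannot be told apart here. With the siRNAs of the 5 columns on either side as its control, siMtf1 Mt2 differed by a log2 of -0.58 (edgeR adjusted p = 0.40).

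Comparing each siRNA with the mean of all other transfected conditions takes the weight off nt. Here 1.59% of gene and siRNA pairs were called lower and 2.7% higher. Mt2 was called lower under 5 siRNAs and higher under 6, and Mt1 lower under 2 and higher under 2.

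Among the called results the largest fall was that of Mt2 under siWdr5, which targets a core subunit of histone H3 lysine 4 methyltransferase complexes. Mt2 stood at 475, 469 and 645 CPM there, the 5th and the 3rd lowest of the 36 transfected libraries of replicates 1 and 2 and the lowest of the 34 of replicate 3. The log2 difference was -0.73 ± 0.16 (edgeR adjusted p = 5.77e-05), and it held without each replicate (-0.84 to -0.63) and without the block. This siRNA moved many genes, and 17.6% of those tested were called lower in the same comparison. siWdr5 sits at position 10, in the first part of the table, between siJarid2 (mean Mt2 1158 CPM) and siWhsc1l1 (1245 CPM). Mt1 under siWdr5 stood at 383, 398 and 361 CPM and was not called. The other falls of Mt2 were under siPrmt5 (-0.67) and siPrmt7 (-0.57), which target arginine methyltransferases, siBptf (-0.64), which targets a chromatin remodeler subunit, and siIrx1 (-0.57), which targets a homeobox factor, with adjusted p from 0.018 to 0.047, in comparisons that called 0.0332% to 1.92% of genes lower. All 4 of these sit at positions 22 to 29, in the second part of the table, where Mt2 was lower on average. Mt1 under siSet was further down (-0.81), and Mt1 under siPrmt5 was at -0.59, but neither was called.

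The largest rise of Mt2 was under siPhf1, which targets a Polycomb-associated protein and under which 4.22% of genes were called higher. Mt2 stood at 1078, 1347 and 1588 CPM, the 2nd, 4th and 4th highest of each replicate's libraries. The log2 difference was 0.64 ± 0.13 (edgeR adjusted p = 2.6e-04), was called without each replicate in turn (0.63 to 0.68) and was not called without the block (0.63, adjusted p = 0.14). The other rises were under siCdk1 (0.53), siSetdb1 (0.53), siWhsc1l1 (0.51), siTdrd7 (0.47) and siHat1 (0.42), with adjusted p from 0.0048 to 0.044 and 0.73% to 2.56% of genes called higher. All 6 rises of Mt2 sit at positions 4 to 13, in the first part of the table, where Mt2 was higher on average, so position and siRNA cannot be told apart for these calls either. For Mt1 the largest rise was under siWhsc1l1, which targets a histone H3 lysine 36 methyltransferase, with 636, 679 and 1021 CPM (0.82 ± 0.17, adjusted p = 3.3e-04, not called without replicate 3, 2.56% of genes called higher). siHat1 was the other called rise of Mt1 (0.53), while siTead2 lay between them (0.61, adjusted p = 0.056) and was not called. Mt1 was lower under siPou5f1 (-0.65, 5.14% of genes called lower) and siBard1 (-0.53, 5.04%). Only siWhsc1l1 and siHat1 were called for both genes. Apart from siWdr5 and siPhf1 for Mt2 and siWhsc1l1 for Mt1, each of these calls was lost without the block and without at least 1 of the replicates. Whether the siRNAs acted on the pair unequally was not tested beyond the share of Mt2 given next.

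**Figure D3:**
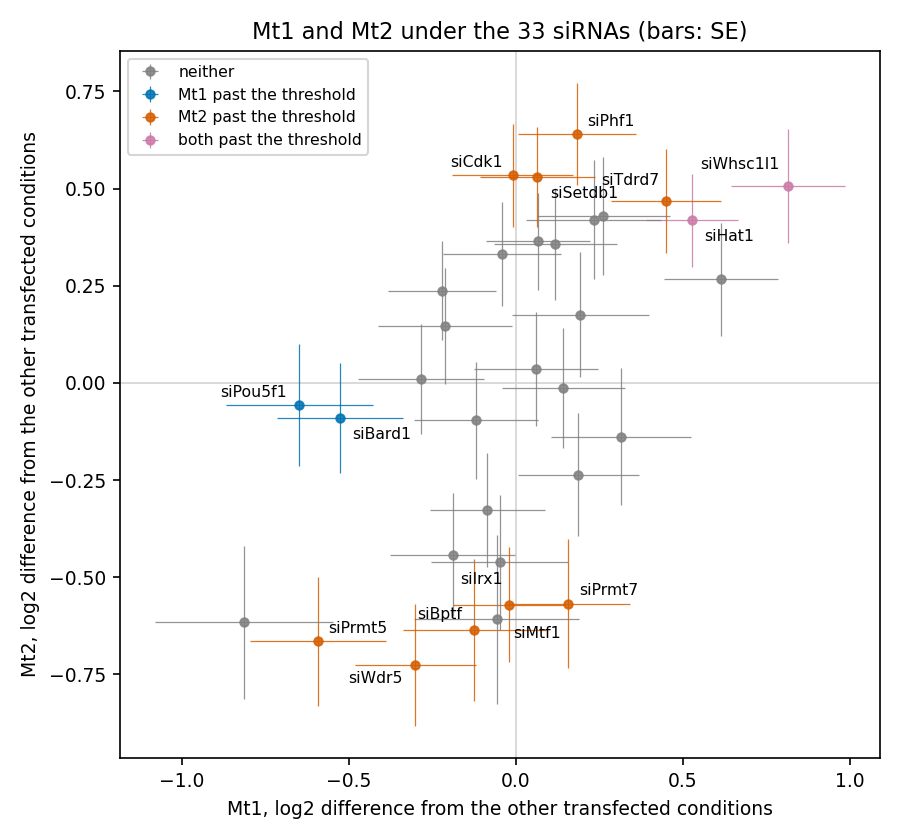
Log2 difference of each of the 33 siRNAs from the other transfected conditions for Mt1 (horizontal) and Mt2 (vertical), with standard errors as bars and colours for the genes past the adjusted threshold. siWhsc1l1 and siHat1 are high for both, siPou5f1 and siBard1 are called low for Mt1, siSet (-0.81) is lowest for Mt1 without a call, siPrmt5 (-0.59) is lower than siBard1 (-0.53) without one, and siWdr5 at -0.73 is lowest for Mt2.

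The balance of the pair was read as the share of Mt2 in the counts of Mt1 plus Mt2, which is a share of molecules counted and not a level per length. It was 66.6% over all libraries and above 50% in 116 of 127. By day it was 36.7% on Day00, from 30 counts only, then 59.0%, 50.6%, 58.8%, 68.3% and 75.7% on Day01 to Day05, and 64.1% on Day06. From Day05 to Day06, where the share went down, Mt1 was called higher and Mt2 was not. The share differed over the days (permutation test of labels within replicates, two-sided, p = 0.022, n = 21 libraries). Of the depth-weighted variance, 62.3% lay between days, and with few libraries a day part of this arises from sampling alone. The difference over the days did not pass without replicate 1 (permutation p = 0.23) or with each library weighted equally (permutation p = 0.21).

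Among transfected conditions the share ran from 54.5% under siPrmt7 and 55.1% under siMtf1 to 74.5% under siPou5f1, with 71.1% under nt, 68.6% in Mock and 59.1% under siWdr5. These pooled shares weigh libraries by their counts, and siMtf1 lacks replicate 3. Over replicates 1 and 2 alone they were 55.1% under siMtf1, 65.2% under nt, 54.8% under siWdr5 and 49.5% under siPrmt7, and siMtf1 was the 7th lowest of 35. At the upper end, siPou5f1 was then at 69.9%, the 30th of 35 from the lowest, and siKmt2d was highest at 76.6%. The siMtf1 libraries were at 55% (exact 95% interval 38.5 to 70.7%) and 55.2% (42.6 to 67.4%), and the nt libraries were at 63.6%, 66.1% and 74.7%. The share differed over the conditions (permutation p = 9.0e-05, n = 106 libraries). Of the variance, 56.0% lay between conditions, and with few libraries per condition part of this too arises from sampling alone. Without replicate 2 the permutation p was 0.064.

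**Figure D4:**
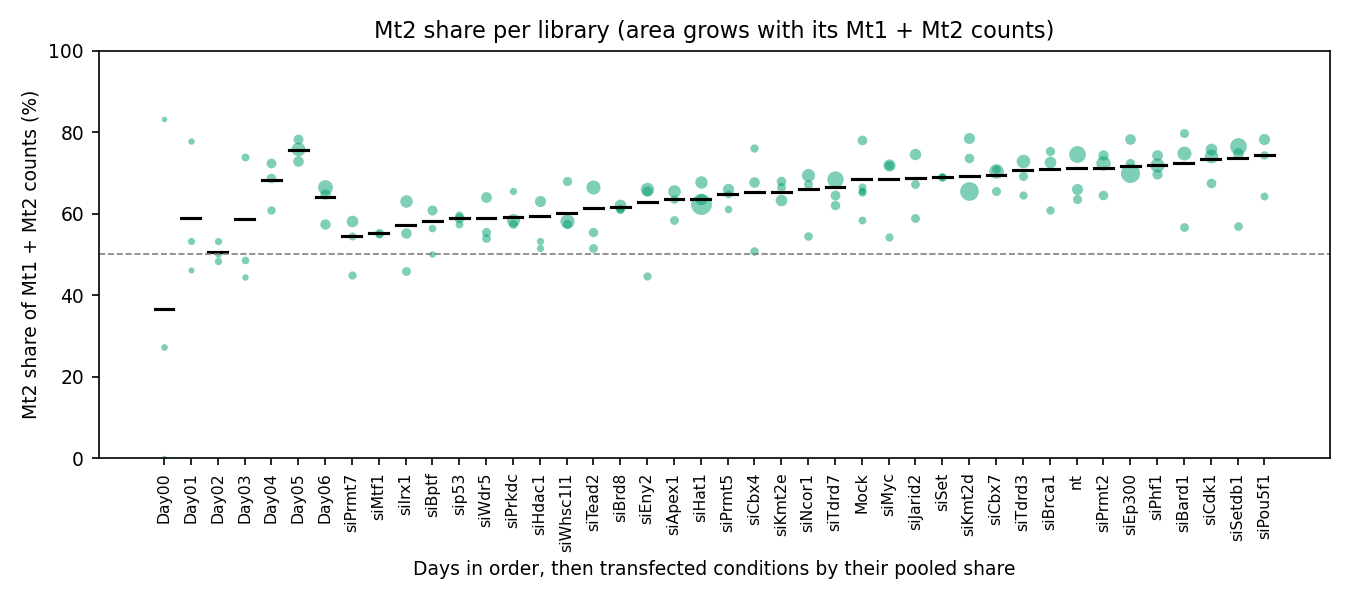
Share of Mt2 in the counts of Mt1 plus Mt2 (percent) in each library, with bars for the pooled share of each condition and circle area growing with the number of counts. The days come first in order and the transfected conditions follow by pooled share, from siPrmt7 at 54.5% to siPou5f1 at 74.5%, and 116 of 127 libraries lie above the dashed line at 50%.

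Pearson's r between the condition means of Mt1 and Mt2 (log2 CPM) was 0.94 over 7 days (Spearman's rho 1.00), 0.52 over 35 transfected conditions (rho 0.57) and 0.88 over all 42 (rho 0.69). Deviations of the 127 libraries from their condition means gave 0.33 (rho 0.44). These points share pools and scaling totals and are given as a description.

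Among the 2815 tested genes with a mean of at least 50 CPM, the means of Fgfbp1, a carrier of fibroblast growth factors, followed those of the pair most closely over all 42 conditions (Pearson's r 0.87), and Adh7, an alcohol dehydrogenase, came next (0.85), before Gm9294, the ribosomal protein gene Rps4x and Gm4859. Over the 7 days alone the closest were Gm6274 (0.98), Orc4, Rpl7, Dctpp1 and Gm11425. Over the transfected conditions alone they were Gm6136 (0.72), Krtdap (0.69), Msmo1, a sterol synthesis enzyme (0.68), Atp6v1f and Fam111a. The genes named Gm are annotated as processed pseudogenes, whose reads may come from their parent genes.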

How the data were processed

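RNA of each well had been turned into barcoded CEL-Seq2 libraries with molecular identifiers. According to the methods, the authors aligned reads to mm10 with Bowtie2, corrected identifiers with the CEL-Seq2 pipeline, assigned them to GENCODE vM13 genes and deposited whole-number counts per gene. The deposited log2 values are CPM that the authors normalized after quality filtering and batch regression, and were used only for the limma alternative. The 127 libraries found in both tables were analysed, and 2 shallow ones were not. Conditions were read from the column names, since the labels name only the 3 replicate pools.

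Counts were fitted in edgeR 4.0.16 (R 4.3.3) with TMM scaling (factors 0.825 to 1.39), the filterByExpr minimum (3013 genes kept), 42 conditions and the replicate as a block, by the quasi-likelihood test with Benjamini-Hochberg adjustment over all tested genes and a threshold of 0.05. CPM refer to the TMM-scaled total of tested genes. The block follows the labels, which give each number as 1 pool. The median correlation of deviations was 0.0981 between libraries of the same number and -0.0685 otherwise. Depth limits small differences. In simulated data over 3013 genes, siMtf1 against nt recovered 17% of genes changed by a log2 of 1 and 59% of those changed by 2. Day06 against Day00 recovered 27% and 70%. The changed genes were drawn from tested genes of all levels and no replicate differences were simulated, so these are averages and not the power for Mt1 or Mt2. The Mt2 share was tested by 100000 permutations of labels within replicates.

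Alternatives were RLE scaling, DESeq2 1.42.0, limma 3.58.1, no block, all libraries, scaling without the pair, other controls, only the libraries compared and leaving out replicates. Added after the data were seen were Mock, neighbouring columns and, for siRNAs other than siMtf1, the other transfected conditions as controls, a filter with a minimum count of 5, and leaving out single control or siMtf1 libraries. The members and gene lists were chosen with earlier results of these data known. Genes named beside the pair are list members past the threshold (at most 5 of a list in each direction), Mtf1, Mt3, Mt4 and Slc30a1, and the 5 closest in pattern over each set of conditions. Sequences came from RefSeq (GRCm38.p6), coordinates from GENCODE vM21, and siRNA sequences from the study's library sheet. All 4 genes of the metallothionein family matched a RefSeq promoter. Marker lists of endothelial, keratinocyte and neural cells summed to at most 74.6, 146 and 290 CPM of all counts in a library.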

Additional observations from a re-analysis of the deposited data

How the results depend on the processing

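The rise of Mt2 on Day03 to Day06 and of Mt1 on Day05 and Day06 over Day00 stayed past the threshold in every alternative run. The screen results did not hold as widely. Values are log2 differences unless given as counts or p. A fit with no filter on low counts was not run. The cause of the changes listed here was not tested, beyond what the fewer libraries of a setting fix.

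For Mt2, siMtf1 against nt (-1.07) was no longer called with Mock as the control (-0.49), with the 5 columns on either side (-0.58), with limma on the deposited values (-0.92), with nt and Mock together (-0.79), without the replicate block (-1.26), with only the libraries compared (-0.77) and without any of replicates 1 to 3, either siMtf1 library or nt replicate 3, the values of all runs that left out libraries being -1.26 to -0.80. Runs that leave siMtf1 with 1 library assume that it varies like the other conditions. For Mt1 this comparison turned to 0.24 with Mock as the control, and ran from -0.51 to -0.03 when replicates were left out. Against the other transfected conditions, siMtf1 Mt1 turned to 0.0098 in limma and ran from -0.36 to 0.18 when replicates were left out, and Mt2 from -0.75 to -0.50. siBard1 Mt2 turned to 0.01 with Mock as the control.

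Mt2 siRNAs lower than nt (12) numbered 1 with Mock, 0 in limma, 4 with nt and Mock together, 1 without the replicate block, 5 against the other transfected conditions, and 1 to 12 when replicates or nt libraries were left out. Those higher (0) numbered 2 with Mock (siCdk1 and siPhf1) and 6 against the other transfected conditions. For Mt1, the lower ones (2) numbered 0 with Mock, in limma, with nt and Mock together and without the replicate block. They numbered 1 with all libraries, in DESeq2, with RLE and with the looser filter, and 0 to 2 when replicates were left out. With only the libraries compared they were again 2, but with siSet in the place of siPou5f1. The higher ones (0) numbered 3 with Mock, 1 with nt and Mock together and 2 against the other transfected conditions.

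The Mt1 difference of nt from Day06 turned to 0.0018 with the looser filter and ran from -0.32 to 0.17 when replicates were left out. That of Mt2 turned to -0.087 in limma and ran from -0.10 to 0.54. Mock Mt1 passed against Day06 with all libraries (-0.64), in DESeq2 (-0.66) and with RLE (-0.65), and Mock Mt2 passed against nt with the looser filter (-0.72) and without nt replicate 1 (-0.69), and ran from -0.73 to -0.26 when replicates were left out. Differences of Mt1 over the transfected conditions gave an adjusted p of 0.066 in limma and 1.38e-06 to 0.012 when replicates were left out.

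Days with Mt1 higher than Day00 (3) numbered 5 in limma and 2 to 5 when replicates were left out, and with Mt2 higher (6) 4 to 6. Days higher than the day before, 1 for Mt1 and 2 for Mt2, numbered 0 for both in limma and without the replicate block, 1 for Mt2 in DESeq2, and 0 to 1 for Mt1 and 1 for Mt2 when replicates were left out. The p of the Mt2 share over days was 0.21 with libraries weighted equally (permutation test) and 0.011 to 0.23 when replicates were left out, and over the transfected conditions 0.0015 to 0.064 (permutation tests).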

Other observations

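The 2 shallow libraries were in no comparison. The siMtf1 library of replicate 3, absent from the authors' normalized table, held 7981 counts, with 4 of Mt1 and 5 of Mt2, and a Mock library of replicate 3 held 6403 counts, with 0 of Mt1 and 1 of Mt2.

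Between nt and untransfected Day06 cells, where neither metallothionein was called different, 26.6% of all tested genes were called. Of 6 tested iron genes, the ferritin genes Fth1 (log2 -0.73 ± 0.17) and Ftl1 (-0.71 ± 0.18) and the poly(C)-binding genes Pcbp1 (-0.94 ± 0.20) and Pcbp2 (-1.18 ± 0.21) were lower, and Tfrc was higher (1.26 ± 0.20). Of 14 tested genes of the oxidative stress response 4 were called, a share near that of all genes and in both directions: Prdx1 was higher (1.27 ± 0.17), and Prdx6 (-1.09 ± 0.25), Gpx1 (-1.31 ± 0.39) and Cat (-1.23 ± 0.46) were lower. Of 4 tested genes of metal-responsive regulation and zinc transport 1 was called, the zinc importer Slc39a6, which was lower (-1.11 ± 0.44). The glucocorticoid receptor gene Nr3c1 (-1.67 ± 0.61, 1 called of 4 tested in its list) and the kinase gene Jak1 (-1.72 ± 0.45, 1 of 2) were lower as well. All of these had an edgeR adjusted p under the threshold.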
